A study of Marmota monax with 203 samples.

Results

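The genes described here encode the cytokines IL-15, IL-18, IL-7 and IL-27 and the proteins that bind, carry or block them. Their 8 symbols are IL15, IL15RA, IL18, IL18BP, IL7, IL1RN, IL27 and EBI3, they were chosen by symbol with earlier results of these data known, and each was found among the 17587 genes listed in the files. They were measured by poly(A) RNA sequencing of liver biopsies from woodchucks (Marmota monax), a rodent that carries the woodchuck hepatitis virus (WHV), a relative of the human hepatitis B virus. All animals were born in captivity, were infected as newborns with WHV and were chronic carriers as adults, so that no group was free of virus. One group received woodchuck interferon alpha 5 (wIFN-α), a recombinant protein made in a human cell line, and the other received placebo. The wIFN-α dose was 20 μg per injection at weeks 0 and 3 and 100 μg at weeks 7, 11 and 15. Week -3 came before treatment, and weeks 19 and 23 came after it. Injections were given 3 times a week, and biopsies on treatment were taken 6 hours after an injection. At week 0 this was the first injection of 20 μg, and at week 7 the first of 100 μg. The sample labels number week 0 as 1 and week 15 as 16, and the study's own weeks are used here. The wIFN-α group had 11 animals at weeks -3 and 0, 9 at weeks 3 and 7, 8 at weeks 11 and 15, and 6 at weeks 19 and 23. The placebo group had 12 animals through week 7, then 10, 9, 5 and 9 at weeks 11, 15, 19 and 23. Animals are named by sex and number, such as F1020, and the same animals were biopsied week after week. Animal M1004 of the wIFN-α group, which the study set aside because it was probably clearing WHV on its own, was left out.

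IL-15 is a growth and survival factor of NK cells and CD8 T cells, and it is handed to these cells by neighbours that hold it on their surface bound to IL-15 receptor alpha, the product of IL15RA. IL-18 is stored as an inactive precursor, is cut by caspase-1 in the inflammasome and drives interferon gamma release, and IL-18 binding protein, the product of IL18BP, captures the released cytokine. IL-27 is a pair of proteins, one encoded by IL27 and the other by EBI3, and it acts on T cells and myeloid cells. IL-7, which stromal cells and hepatocytes make, maintains T cells. IL1RN encodes the IL-1 receptor antagonist, which blocks IL-1 at its receptor and is made by hepatocytes and myeloid cells.

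The biopsies compared, 81 of placebo and 68 of wIFN-α animals, held 12072840 to 84805845 reads on genes, with a median of 28754894. Levels are given as CPM, read counts scaled to a common library size with TMM, a correction for library composition. The liver label was checked with 12 hepatocyte markers, and at week -3 it went against the values of 2 biopsies. These markers summed to 502 CPM in placebo animal F1016 and 324 CPM in wIFN-α animal F1018, and to 51509 to 236272 CPM in the rest. In the same 2 biopsies skeletal muscle genes took 15.3% and 15.1% of all CPM. Muscle genes also took 12.6% in placebo animal F1021 at week 3 and 8.42% in wIFN-α animal F1023 at week 0, where hepatocyte markers summed to 51509 and 92546 CPM, against a median of 0.0429% in the other biopsies. Leaving out F1021 at week 3 or F1023 at week 0 ended no member's call. At week -3 no member was called with F1016 and F1018 or without them, and values set against week -3 are given both ways. No member was too low to be tested at any week. The lowest count in a biopsy was 4 reads, for IL27 and for EBI3. A bulk biopsy cannot tell fewer cells of a type from less RNA per cell.

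On wIFN-α treatment, 4 of the 8 members, IL15, IL15RA, IL18BP and IL27, were higher than in placebo at every week from 0 to 15, and IL18 was lower at 4 of these 5 weeks. IL1RN was called higher at week 0 and EBI3 at week 11, and the differences of IL7 stayed under 1.5-fold. A gene was called when its quasi-likelihood p from edgeR, adjusted by Benjamini and Hochberg's method over all genes tested, was under 0.05 and its fold change above 1.5. By this rule 5, 4, 4, 5 and 4 members were higher at weeks 0, 3, 7, 11 and 15, when 10.3%, 7.24%, 11.4%, 12.6% and 13.4% of all genes tested were. Lower by this rule were 1, 0, 1, 1 and 1 members, beside 8.15%, 3.54%, 10.1%, 7.98% and 8.83% of all genes. Calls in the direction of higher expression were made for 836 of 14528 genes (5.75%) at all 5 treated weeks. The median log2 fold change of the members was 1.03 at week 0 and 1.57 at week 15, beside -0.01 over all genes at both weeks.

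**Figure D1:**
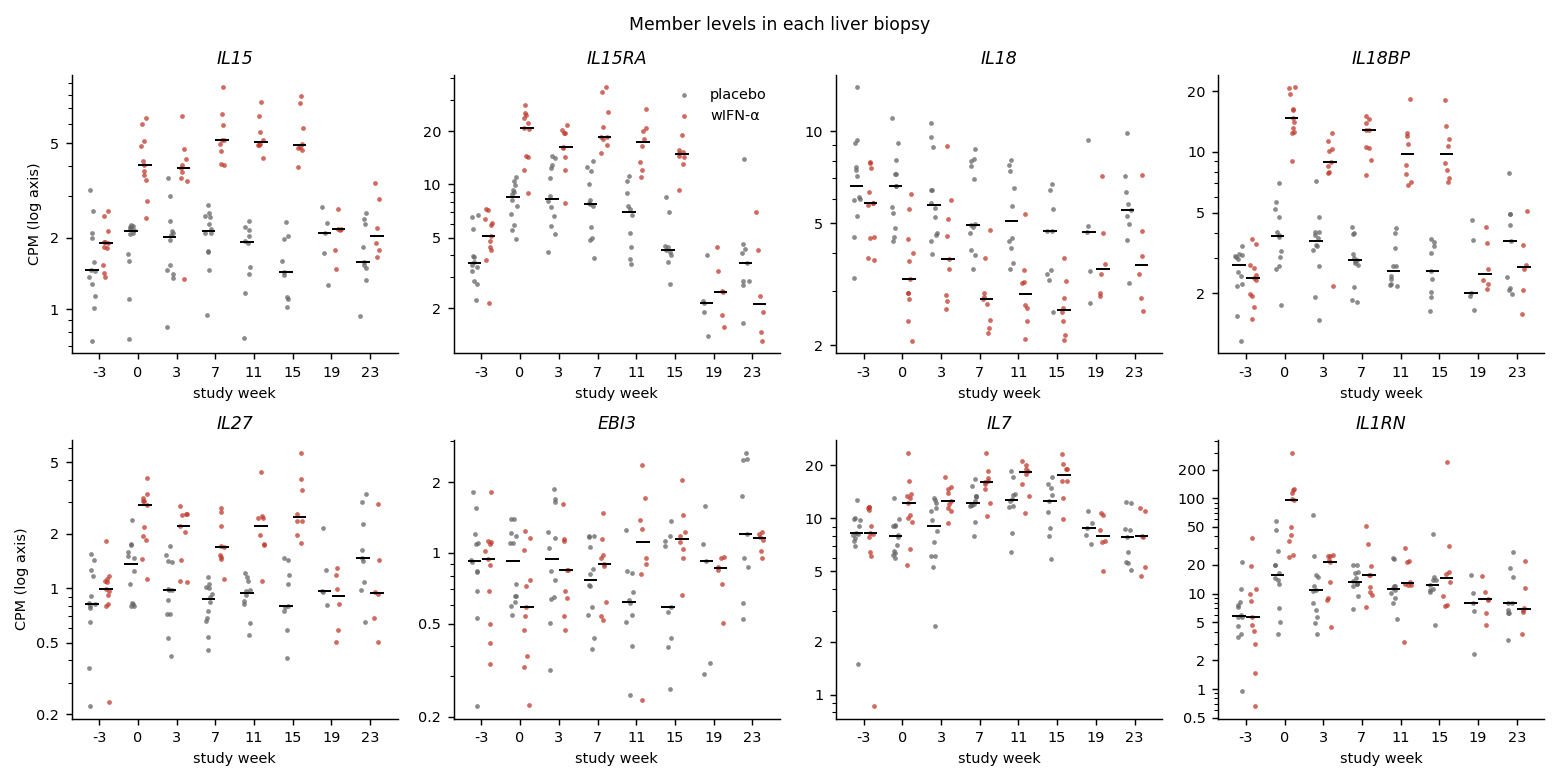
Level of each member in CPM (log axis) in every biopsy used, by study week, with placebo in grey, wIFN-α in red and a black bar at the group median. At week 15 the groups do not overlap for IL15, IL15RA, IL18BP and IL27, which held for 8.39% of all genes, and at weeks 19 and 23 they overlap for every member.

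No member was called at week -3, 19 or 23 by edgeR, DESeq2 or limma-voom, and 0% of all genes were called by edgeR at each of these weeks. The count of members at an unadjusted p under 0.05 was 0 at all 3 weeks in edgeR and DESeq2. In limma-voom 1 member had such a p at week -3, 0 at week 19 and 1 at week 23. Every member's groups overlapped at weeks 19 and 23, when 0.7% and 0.0267% of all genes had each wIFN-α animal above each placebo animal.

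IL15 was low but separated the groups. At week 0 its level in wIFN-α animals ran from 2.41 to 6.38 CPM with a median of 4.03, and in placebo animals from 0.746 to 2.26 CPM with a median of 2.13. At week 15 the range was 3.95 to 7.87 CPM (median 4.91) on wIFN-α and 1.02 to 2.32 CPM (median 1.43) on placebo. At both weeks every wIFN-α animal lay above every placebo animal, which held for 4.56% of all genes at week 0 and 8.39% at week 15. The log2 fold change was 1.15 ± 0.18 (SE) at week 0 (edgeR adjusted p = 2.87e-05) and 1.84 ± 0.19 at week 15 (adjusted p = 4.65e-07), or 2.21-fold and 3.59-fold. The values for weeks 3, 7 and 11 were 0.96, 1.38 and 1.65. The groups overlapped at week 3, when 0.387% of all genes had no overlap in this direction, and at no other treated week (7.45% of all genes were apart at week 11). At week 3, F1013 had 1.34 CPM and the next lowest wIFN-α animal 3.48 CPM. Each of the 8 wIFN-α animals biopsied at weeks -3, 0 and 15 had more IL15 at week 0, and again at week 15, than it had at week -3, F1018 among them. In placebo animals IL15 was above its week -3 value in 7 of 9 at week 0, by a mean of 0.28 ± 0.51 (SD) on the log2 scale, and in 6 of 9 at week 15. Without F1016 this was 6 of 8 at week 0, by 0.23 ± 0.52, and 5 of 8 at week 15. By week 19 the levels were 1.48 to 2.64 CPM on wIFN-α and 1.26 to 2.7 CPM on placebo, a log2 difference of 0.03 ± 0.22.

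IL15RA was more abundant than IL15 per kilobase, and its placebo level also moved. At week -3 the wIFN-α animals had 2.13 to 7.28 CPM (median 5.1) and the placebo animals 2.21 to 6.74 CPM (median 3.57). At week 0 wIFN-α animals had 8.89 to 28 CPM (median 20.9) and placebo animals 4.94 to 11 CPM (median 8.47). The placebo level was thus itself higher at week 0, and 8 of the 9 placebo animals biopsied at weeks -3, 0 and 15 had more IL15RA at week 0 than at week -3, by a mean of 1.09 ± 0.59 (SD) on the log2 scale. Without F1016 this was 8 of 8, by 1.25 ± 0.37. The mean change of the 8 wIFN-α animals with the same biopsies was 2.1 ± 0.74, and 2.17 ± 0.78 without F1018. These changes over time were not tested.

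Against placebo, IL15RA was higher by log2 1.23 ± 0.18 at week 0 (edgeR adjusted p = 5.64e-06), 0.80 ± 0.22 at week 3 (adjusted p = 0.0115), 1.44 ± 0.22 at week 7 (9.88e-06), 1.31 ± 0.23 at week 11 (1.99e-04) and 1.61 ± 0.19 at week 15 (2.66e-06). The groups did not overlap at weeks 7 and 15. Every wIFN-α animal was above every placebo animal for 8.1% and 8.39% of all genes at these weeks. M1006 was inside the placebo range at week 0. With the animal as a replicate block and each difference taken relative to the one at week -3, the differences were 0.82 at week 0 (adjusted p = 0.0501) and 0.43 at week 3 (adjusted p = 0.41), so both calls were lost, while the 3 calls at the high dose held. In this fit 2 members were called at week 3, against 4 without the block. Without the muscle-rich biopsies of F1016 and F1018 in it, the differences of IL15RA were 0.77 (adjusted p = 0.0637) and 0.36 (0.488), the week 11 call was lost as well (0.82, adjusted p = 0.0689), and 3 members were called at week 3. At week 23 placebo animal M1005 had 13.9 CPM and the next placebo animal 4.61 CPM.

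IL18 was the member that fell. At week 0 it ran from 2.07 to 6.25 CPM (median 3.29) on wIFN-α and from 4.36 to 11 CPM (median 6.62) on placebo. At week 7 the range was 2.19 to 4.74 CPM (median 2.83) on wIFN-α and 3.55 to 8.76 CPM (median 4.95) on placebo. The groups overlapped at every week, but 8 of 11 wIFN-α animals at week 0 and 7 of 9 at week 7 lay below every placebo animal. The log2 fold change was -0.90 ± 0.19 at week 0 (edgeR adjusted p = 6.73e-04), -0.99 ± 0.19 at week 7 (1.58e-04), -0.84 ± 0.21 at week 11 (0.00399) and -0.73 ± 0.19 at week 15 (0.00589), between 1.66-fold and 1.98-fold lower. Lower expression at 4 or more of the 5 treated weeks was called for 545 of 14528 genes (3.75%).

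At week 3 the IL18 difference was -0.53 ± 0.23 and was not called (edgeR adjusted p = 0.109). Without M1012, whose 8.93 CPM was the highest wIFN-α value of that week, it was -0.72 (adjusted p = 0.0194). In all 8 wIFN-α animals biopsied at weeks -3, 0 and 15, IL18 was lower at week 0 and at week 15 than at week -3. In the 9 such placebo animals it was lower in all 9 at week 15, by a mean of 0.51 on the log2 scale (mean change -0.51 ± 0.15 SD), against -0.99 ± 0.23 in the wIFN-α animals. Without F1016 and F1018 these means were -0.48 ± 0.12 and -1.01 ± 0.24. Taken relative to week -3 with the animal as a replicate block, the week 15 difference was -0.53 (adjusted p = 0.0343, and 0.0358 without F1016 and F1018), under 1.5-fold, and that call was lost. After treatment the IL18 difference was log2 -0.30 ± 0.33 at week 19 and -0.51 ± 0.25 at week 23 (adjusted p = 0.723 and 0.327), and it was -0.29 ± 0.20 before treatment.

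IL18BP, the decoy for IL-18, had the largest log2 fold change of the 8 members at weeks 3, 7, 11 and 15. At week 0 wIFN-α animals had 8.98 to 20.9 CPM (median 14.8) and placebo animals 1.75 to 7.01 CPM (median 3.85). At week 15 the levels were 7.11 to 18 CPM (median 9.77) on wIFN-α and 1.63 to 3.73 CPM (median 2.59) on placebo. No wIFN-α animal reached down to the placebo range at weeks 0, 7, 11 or 15. This held for 4.56%, 8.1%, 7.45% and 8.39% of all genes at these weeks. The log2 fold change was 1.92 ± 0.19 at week 0 (edgeR adjusted p = 2.32e-08), 2.0 ± 0.15 at week 7 (2.88e-10), 1.88 ± 0.20 at week 11 (3.49e-07) and 1.98 ± 0.21 at week 15 (7.04e-07), between 3.67-fold and 3.99-fold. At week 3 it was 1.23 ± 0.25 (adjusted p = 9.81e-04), and F1013, at 2.17 CPM, was the 1 wIFN-α animal inside the placebo range, with the next lowest at 7.88 CPM. At week 19 the levels were 2.1 to 4.28 CPM on wIFN-α and 1.65 to 4.61 CPM on placebo, and the ranges overlapped.

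IL18BP and IL18 were also set against each other per kilobase of transcript. Where this ratio stands against 1 rests on the implied lengths of 4.28 kb for IL18BP and 1.14 kb for IL18, and its difference between groups does not. The ratio of IL18BP to IL18 had a placebo median between 0.0988 and 0.189 at the 8 weeks, and no placebo biopsy reached 1. On wIFN-α the median was 0.105 at week -3, 1.13 at week 0, 0.717 at week 3, 0.954 at week 7, 0.852 at week 11 and 1 at week 15. In 7 of 11 animals at week 0 and 4 of 8 at week 15 the ratio was above 1. All wIFN-α animals at weeks 0, 7, 11 and 15 were above every placebo animal of the week, and at week 3 so were 8 of 9. At week 19 the medians were 0.202 on wIFN-α and 0.189 on placebo. The ratio was chosen after the members' values had been seen and is given without a test.

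**Figure D2:**
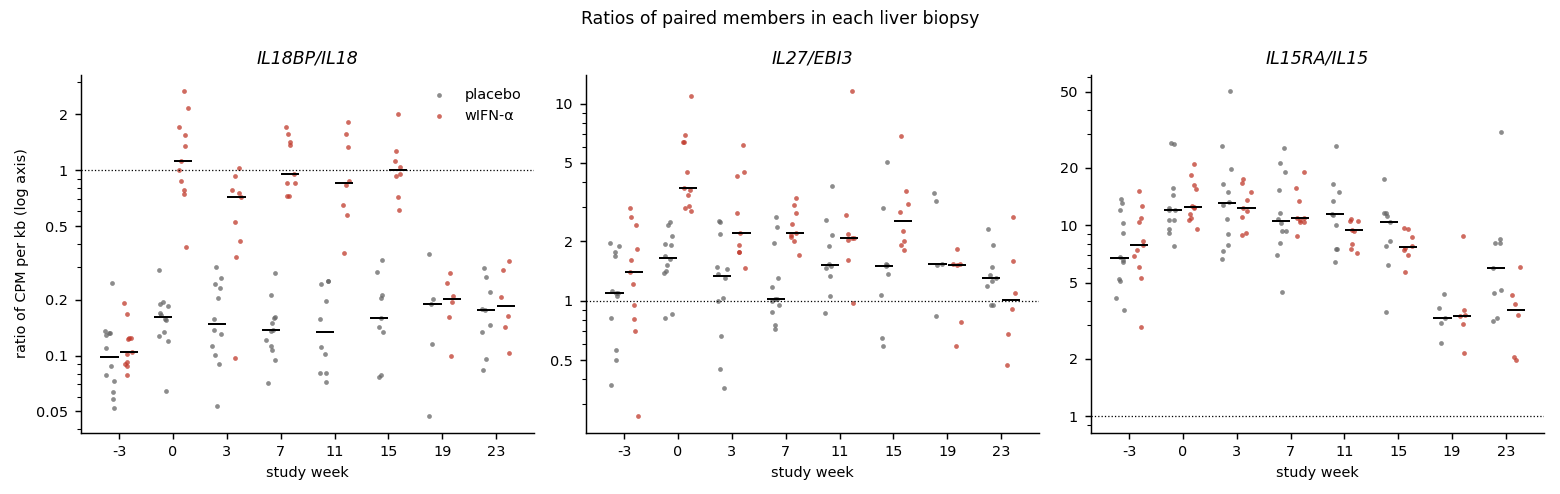
Ratio of CPM per kilobase (log axis) of IL18BP to IL18, IL27 to EBI3 and IL15RA to IL15 in every biopsy, by study week, with placebo in grey, wIFN-α in red, black bars at the medians and a dotted line at 1. The IL18BP to IL18 ratio has medians of 0.717 to 1.13 on treatment with wIFN-α and is at most 0.353 in every placebo biopsy. At week 3 F1013, at 0.0972, is inside the placebo range. The IL15RA to IL15 ratio overlaps between groups at every week.

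IL15RA and IL15 had ratios that overlapped between the groups. The median was 12.4 on wIFN-α and 12 on placebo at week 0, and 10.9 against 10.6 at week 7. At week 15 it was 7.68 (5.67 to 9.72) on wIFN-α and 10.4 (3.51 to 17.5) on placebo.

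The 2 subunits of IL-27 are described in turn. IL27 ran from 1.12 to 4.1 CPM (median 2.89) on wIFN-α and 0.8 to 2.4 CPM (median 1.35) on placebo at week 0, and from 1.77 to 5.65 CPM (median 2.48) against 0.413 to 1.47 CPM (median 0.794) at week 15. The groups overlapped at week 0 and were apart at week 15, as were those of 8.39% of all genes in this direction. In log2 units the difference was 0.91 ± 0.22 at week 0 (edgeR adjusted p = 0.00268), 0.96 ± 0.24 at week 3 (0.00632), 1.13 ± 0.18 at week 7 (2.27e-05), 1.31 ± 0.22 at week 11 (1.06e-04) and 1.70 ± 0.28 at week 15 (8.86e-05). Relative to week -3 with the animal as a replicate block, the week 3 call was lost (log2 0.80, adjusted p = 0.0542), and without F1016 and F1018 in that fit it held (0.78, adjusted p = 0.0453). After treatment the difference was -0.44 ± 0.33 at week 19 and -0.50 ± 0.41 at week 23.

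EBI3 was about as low as IL27 in placebo livers. At week 0 it had 0.225 to 1.24 CPM (median 0.586) on wIFN-α and 0.545 to 1.4 CPM (median 0.918) on placebo, and 5 of 11 wIFN-α animals lay below every placebo animal. At week 11 it had 0.236 to 2.36 CPM (median 1.11) on wIFN-α and 0.249 to 1.25 CPM (median 0.621) on placebo, and 4 of 8 wIFN-α animals exceeded all placebo animals. Its fold changes, on the log2 scale, were -0.48 ± 0.26 at week 0 (edgeR adjusted p = 0.169), -0.26 ± 0.29 at week 3 (0.554), 0.15 ± 0.23 at week 7 (0.622), 0.86 ± 0.33 at week 11 (0.0469) and 0.61 ± 0.30 at week 15 (0.114). The week 11 call was lost without any 1 of F1014, F1020, F1022, M1002 or M1012 (adjusted p = 0.0511 to 0.135), the last of these p values without F1020, which had the highest level. It was also lost with limma-voom (0.108), with no filter on low counts (0.0545), with only the deepest run per biopsy (0.0647) and with M1004 included (0.0618). Relative to week -3 with the animal as a replicate block, the call was kept (log2 0.83, edgeR adjusted p = 0.0162). Without F1016 and F1018 in that fit it was kept as well (0.92, 0.00682).

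The ratio of IL27 to EBI3 per kilobase was 2.86 to 10.9 (median 3.72) on wIFN-α at week 0 and 0.814 to 2.5 (median 1.65) on placebo, with no overlap. The highest ratio of week 0, in M1006, rested on 7 EBI3 reads, and those of F1013 and F1022 on 7 and 6. At weeks 3, 7 and 11 the groups overlapped, and 4 of 9, 3 of 9 and 1 of 8 wIFN-α animals exceeded all placebo animals. At week 15 the ratio was 1.81 to 6.85 (median 2.54) against 0.589 to 5.06 (median 1.5), and 1 of 8 wIFN-α animals exceeded all placebo animals. This ratio too was chosen with the values known and has no test.

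IL7 was among the more abundant members, and its differences stayed under the fold threshold. At week 0 it had 5.43 to 23.7 CPM (median 12.2) on wIFN-α and 5.96 to 13 CPM (median 7.98) on placebo, and at week 15 9.87 to 23.2 CPM (median 17.7) against 5.89 to 17.1 CPM (median 12.5). The groups overlapped at every week, and 4 wIFN-α animals exceeded all placebo animals at each of weeks 0, 3, 11 and 15. At the treated weeks log2 fold changes lay between 0.35 ± 0.13 (week 7) and 0.55 ± 0.19 (week 0). The edgeR adjusted p was 0.0279, 0.0889, 0.0288, 0.0648 and 0.043 at weeks 0, 3, 7, 11 and 15, with folds of 1.46, 1.45, 1.28, 1.34 and 1.45, so that none was called. The fold passed 1.5 at week 0 without F1023 (log2 0.61, adjusted p = 0.0107) or without M1006 (0.62, 0.00707). At week 15 it did so without wIFN-α animal F1020 (0.62, 0.0182) or without placebo animal F1015 (0.60, 0.0264) or F1017 (0.59, 0.0312), and with limma-voom (0.61, 0.0257). With lane as a covariate in a fit of all weeks IL7 was called at week 0 (0.61, 0.0146) and week 3 (0.59, 0.0412). Relative to week -3 with the animal as a replicate block the differences were 0.50, 0.48, 0.26, 0.36 and 0.44 at the 5 weeks, with edgeR adjusted p between 0.162 and 0.533. Without F1016 and F1018 in that fit they were 0.47, 0.43, 0.21, 0.29 and 0.39, with edgeR adjusted p between 0.0681 and 0.496. Within group and week, IL7 went with hepatocyte markers and against skeletal muscle genes. Over the 81 placebo and 68 wIFN-α biopsies the Pearson r of the deviations from group-week means was 0.625 with the 12 hepatocyte markers and -0.357 with the 20 muscle genes. Without F1016 and F1018 at week -3 these were 0.387 and -0.236. These are values of the same libraries, and animals recur across weeks. The lowest IL7 values, 0.862 CPM in F1018 and 1.5 CPM in F1016, were those of the muscle-rich biopsies of week -3. The part of tissue mixture in the IL7 differences was not tested.

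IL1RN, the IL-1 receptor antagonist, spread widely between animals. At week 0 wIFN-α animals had 24.5 to 302 CPM (median 96.3), with M1007 the highest, and placebo animals had 3.78 to 57.8 CPM (median 15.6), with F1019 the highest. The groups overlapped, and the top 6 of the 11 wIFN-α animals exceeded all placebo animals. In the fit this was a log2 fold change of 2.16 ± 0.46, or 4.48-fold (edgeR adjusted p = 6.74e-04). At week 3 the levels were 4.48 to 25.7 CPM (median 21.6) on wIFN-α and 3.76 to 66.9 CPM (median 10.8) on placebo, and the log2 difference was 0.15 ± 0.45 (adjusted p = 0.851).

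The effect on IL1RN at week 0 minus the effect at week 3, at the same dose, was log2 2.03 ± 0.66, but it did not pass (edgeR adjusted p = 0.173). It was 1.59 (adjusted p = 0.192) with the animal as a replicate block, and the adjusted p over all alternatives lay between 0.0871 and 0.304. For this difference between weeks no member passed in edgeR, DESeq2 or limma-voom, 2 members (IL18BP and IL1RN) had an unadjusted p under 0.05 in each of the 3, and 0.383% of 15406 genes passed in edgeR. A call at week 0 and none at week 3 is thus not a shown difference between these weeks. In placebo animals IL1RN was also higher at week 0 than at week -3 in 9 of 9 animals, by a mean log2 change of 1.26 ± 1.41 (SD), and of 0.81 ± 0.43 in the 8 without F1016.

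At week 15 the IL1RN difference of log2 1.53 ± 0.68 (edgeR adjusted p = 0.0781) rested on 1 animal. F1020 had 240 CPM, the next wIFN-α animal 31.3 CPM and the wIFN-α median was 14.6 CPM, against a placebo median of 12.2 CPM. Without F1020 the log2 difference was -0.02 (adjusted p = 0.981). Without placebo animal M1011, at 41.9 CPM the highest of its group, it was 1.89 (adjusted p = 0.0351). A fit of all weeks without the replicate block gave 1.49 (adjusted p = 0.0177), and 1.37 (adjusted p = 0.0442) with lane as a covariate. With the animal as a replicate block and relative to week -3 it was 0.72 (adjusted p = 0.399), and 0.70 (0.379) without F1016 and F1018. DESeq2 gave -0.07 (adjusted p = 0.907) and limma-voom 0.56 (0.427).

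**Figure D3:**
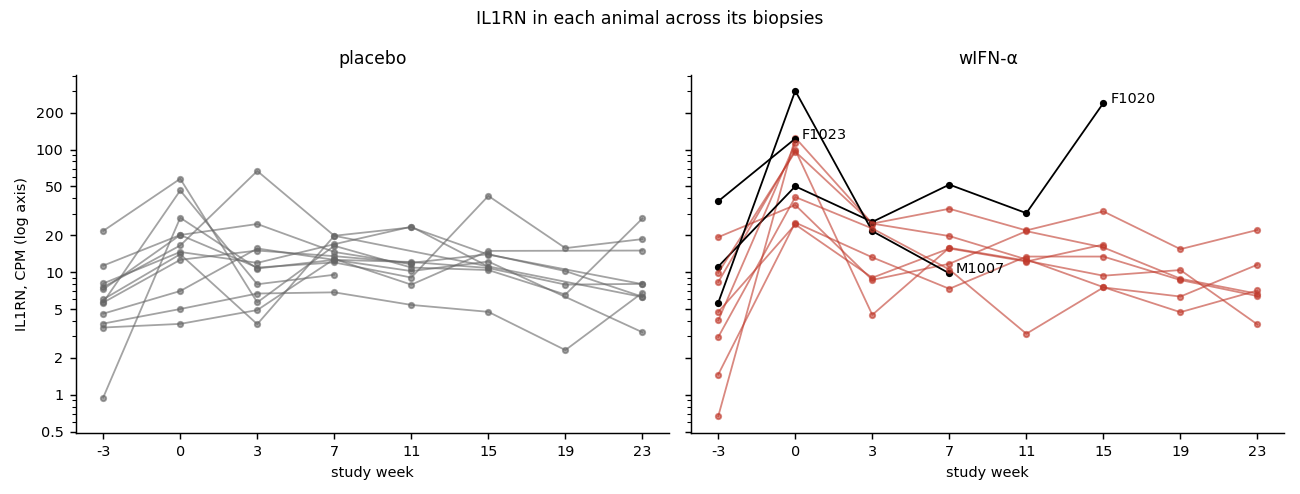
IL1RN in CPM (log axis) in every animal across its biopsies, with 1 line per animal, placebo at left and wIFN-α at right. The black lines, named after their values were seen, are M1007, at 302 CPM the highest at week 0, F1023, at 123 CPM in its last biopsy used here, and F1020, at 240 CPM at week 15.

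**Figure D4:**
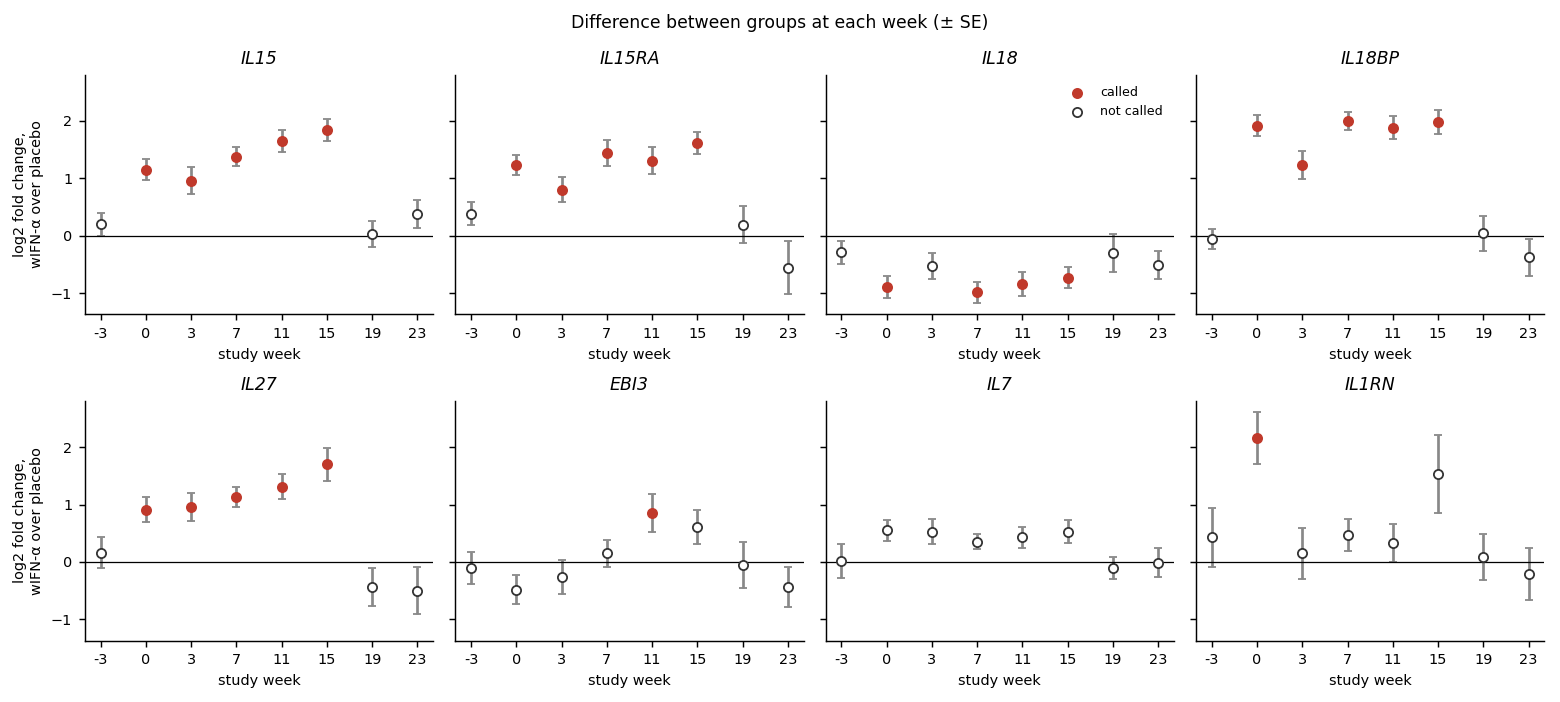
Log2 fold change of wIFN-α over placebo (± SE) for each member at each study week, with filled red points for calls. IL15, IL15RA, IL18BP and IL27 are called at all 5 treated weeks, IL18 is called lower at weeks 0, 7, 11 and 15, and no point is filled at weeks -3, 19 and 23.

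Whether the effect differed between the low dose and the end of the high dose was asked by subtracting the mean effect at weeks 0 and 3 from the effect at week 15. Dose and time on treatment changed together and cannot be told apart. The difference was log2 0.73 ± 0.26 for IL15, 0.94 ± 0.37 for EBI3, 0.71 ± 0.31 for IL27 and 0.54 ± 0.26 for IL15RA, and these 4 had an unadjusted p under 0.05 in edgeR. None passed after adjustment (edgeR adjusted p = 0.123, 0.171, 0.242 and 0.287), where 2.69% of 15666 genes did. DESeq2 and limma-voom also passed none. IL18, IL18BP, IL7 and IL1RN had differences of -0.07 ± 0.27, 0.35 ± 0.28, -0.06 ± 0.27 and 0.30 ± 0.69.

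The same animals were biopsied at these weeks, and with the animal as a replicate block 3 members passed. EBI3 differed by log2 0.99 ± 0.21 (edgeR adjusted p = 0.00224), IL27 by 0.70 ± 0.22 (0.0301) and IL15 by 0.65 ± 0.22 (0.0412), and in this fit 13.3% of all genes passed. The sizes were close to those without the block. For EBI3 the log2 fold change was negative at weeks 0 and 3 and positive at week 15, with no call at any of these 3 weeks. In the 8 wIFN-α animals biopsied at weeks -3, 0 and 15, EBI3 was higher than at week -3 in 1 animal at week 0 and in 7 at week 15. In the 9 placebo animals it was higher in 4 at week 0 and in 3 at week 15. Without F1018 and F1016 the counts were 1 and 6 of 7 on wIFN-α, and 3 and 2 of 8 on placebo. Relative to week -3 with the animal as a block, EBI3 differed by log2 0.68 at week 15 (edgeR adjusted p = 0.0518), and by 0.79 (0.0209) without those biopsies, a call that the fit of week 15 alone did not give.

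Markers of T and NK cells moved on treatment beside the members. Of the T and NK markers tested, 2 of 13 were called higher at week 0 (10.3% of all genes) and 9 of 13 at week 15 (13.4%). In the files were 14 of the 15 T and NK markers, all but GNLY. Their summed level was 74.3 to 174 CPM (median 147) on wIFN-α and 81.5 to 139 CPM (median 89.9) on placebo at week 0, and 95 to 168 CPM (median 135) against 72.2 to 135 CPM (median 94.8) at week 3. It did not overlap at week 7, at 122 to 168 CPM against 66.8 to 106 CPM, nor at week 15, at 142 to 283 CPM against 58.4 to 108 CPM. Of the B cell markers, of which PAX5 and JCHAIN were not listed, 1 of 7 tested was called higher at week 0 and 5 of 7 at week 15. Their sum was 8.33 to 33.2 CPM on wIFN-α and 9.56 to 30.9 CPM on placebo at week 0, and 26 to 94.7 CPM against 5.96 to 23.9 CPM at week 15. The dendritic cell markers had 2 of 8 called higher at week 0 and 3 of 9 at week 15. Their sum was 20.7 to 153 CPM on wIFN-α and 41.9 to 165 CPM on placebo at week 0, and 41.2 to 112 CPM against 25.8 to 62.6 CPM at week 15. The macrophage markers, without ADGRE1, had 1 of 11 called higher at week 0, and 4 higher and 1 lower at week 15, with sums at week 15 of 539 to 1493 CPM on wIFN-α and 301 to 713 CPM on placebo. For all these lists the shares over all genes were 10.3% higher at week 0, and 13.4% higher and 8.83% lower at week 15. The week 0 counts are small and were not tested against these shares.

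Within group and week, over the same biopsies, which share libraries and animals, the Pearson r with the T and NK markers was 0.784 for IL27, 0.621 for IL18BP, 0.54 for EBI3 and 0.309 for IL15 (0.768, 0.608, 0.556 and 0.329 without F1016 and F1018). Dendritic and B cell markers gave similar values. With the dendritic cell markers r was 0.727 for IL27, 0.549 for IL18BP, 0.533 for EBI3 and 0.288 for IL15, and with the B cell markers it was 0.664, 0.553, 0.6 and 0.215. For these members macrophage and neutrophil markers gave lower values than the T and NK markers. In the same order of members these were 0.582, 0.468, 0.397 and 0.261 for macrophage markers. For neutrophil markers they were 0.466, 0.226, 0.329 and -0.005. The other members had lower r with the T and NK markers, at 0.189 for IL15RA, 0.148 for IL18, 0.118 for IL1RN and 0.117 for IL7. Without F1016 and F1018 these were 0.264, 0.131, 0.022 and -0.113. The part of these cells in the members' differences was not tested.

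Per kilobase of the transcript length implied by the deposited values, which ran from 1.04 kb for IL27 to 7.87 kb for IL15, the order of the members differed between groups. Over the 55 placebo biopsies of weeks 0 to 15 the median CPM per kilobase was 4.88 for IL18, 3.86 for IL1RN, 3.39 for IL7, 2.83 for IL15RA, 0.923 for IL27, 0.732 for IL18BP, 0.631 for EBI3 and 0.259 for IL15. Neighbours in this order differed by less than the larger of their SDs, except IL15RA from IL27 and EBI3 from IL15. Over the 45 wIFN-α biopsies it was 6.76 for IL15RA, 6.63 for IL1RN, 4.35 for IL7, 2.64 for IL18BP, 2.58 for IL18, 2.13 for IL27, 0.765 for EBI3 and 0.614 for IL15. There the steps larger than both SDs were those from IL7 to IL18BP and from IL27 to EBI3. These orders pool weeks whose levels differed. On wIFN-α the median of IL1RN was 29.6 at week 0 and 4 to 6.65 at weeks 3 to 15, and IL18 was above IL18BP at weeks 3 (3.35 against 2.08) and 11 (2.57 against 2.28). IL15 has the longest transcript, and its low place per kilobase depends on that length.

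Genes around the members, namely their receptors, signalling partners and processing enzymes, were read from 3 lists with 40 genes in all. For the receptors and signalling of IL-2, IL-7 and IL-15, 8 of 10 genes were in the files, all but TSLP and CRLF2. Of these, 2 were called higher at week 0 (10.3% of all genes) and 3 at week 15 (13.4%), and none lower. IL2RB, the receptor chain through which T and NK cells read IL-15, rose by log2 0.64 ± 0.24 at week 0 (edgeR adjusted p = 0.0447) and 1.66 ± 0.27 at week 15 (8.26e-05), from 6.21 ± 2.16 CPM (SD, n = 9) on placebo to 19.5 ± 9.82 CPM (n = 8) on wIFN-α. IL2RG, the chain shared by the receptors of IL-2, IL-7 and IL-15, was at log2 0.01 ± 0.26 at week 0 and rose by 1.45 ± 0.37 at week 15 (adjusted p = 0.00454). JAK3, the kinase bound to that chain, was the third called gene. IL7R, the IL-7 receptor, was below 1 CPM on average and was at log2 0.10 ± 0.42 at week 15 (edgeR adjusted p = 0.87). It was called at week 7, with IL2RB and JAK3, which were both called higher at weeks 0, 11 and 15. Of the list, 2 were then called higher and 1 lower, beside 11.4% and 10.1% of all genes. The T and NK cell markers given above moved at the same week, and their part in these values was not tested.

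The IL-18 and IL-1 list had 17 of 19 genes tested, with 7 called higher and 2 lower at week 0, and 6 higher and 1 lower at week 15. The shares over all genes were 10.3% in the higher and 8.15% in the lower direction at week 0, and 13.4% and 8.83% at week 15. CASP1, which cuts the IL-18 precursor, went from 8.12 ± 3.45 CPM (SD, n = 12) on placebo to 36.4 ± 9.15 CPM (n = 11) on wIFN-α at week 0 and from 5.85 ± 1.49 CPM (n = 9) to 40.2 ± 5.27 CPM (n = 8) at week 15. That was log2 2.13 ± 0.20 (edgeR adjusted p = 7.28e-09) and 2.79 ± 0.14 (2.48e-11), with no overlap of the groups at either week. Of all genes, 4.56% and 8.39% were apart in this direction at weeks 0 and 15. AIM2, a DNA sensor that assembles an inflammasome, rose by log2 1.80 ± 0.28 at week 0 (adjusted p = 2.13e-05) and 3.13 ± 0.28 at week 15 (8.05e-08). IL18RAP, the signalling chain of the IL-18 receptor, rose by 1.44 ± 0.25 (9.07e-05) and 2.74 ± 0.28 (3.93e-07), while IL18R1, its binding chain, was at -0.09 ± 0.18 and 0.09 ± 0.14. GSDMD, the pore protein that caspase-1 activates, rose by log2 1.07 ± 0.11 at week 15 (adjusted p = 5.10e-07). PYCARD, of the same list, was called at weeks 3 and 7 but not at week 0 or 15. The list then had 5 genes called higher and 1 lower at week 3, beside 7.24% and 3.54% of all genes. At week 7 it had 6 higher and 3 lower, beside 11.4% and 10.1%. IL36RN, another receptor antagonist of the IL-1 family, fell by 2.12 ± 0.74 on the log2 scale at week 15 (adjusted p = 0.0283), from 1.57 ± 3.12 CPM to 0.365 ± 0.148 CPM. Its placebo SD was larger than its placebo mean, the groups overlapped, and 2 of 8 wIFN-α animals were below every placebo animal. The sensor NLRP3 was at log2 -0.08 ± 0.13 at week 0 and -0.19 ± 0.18 at week 15 and was not called. Neither was IL1B, at 0.33 ± 0.22 and 0.25 ± 0.18, and IL33, which alerts tissue to damage, was lower at week 0 (-1.10 ± 0.36, adjusted p = 0.021) but not called at week 15.

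Of the IL-27 and IL-12 list, 9 of 11 genes were in the files, all but IL12A and IL23A, and 3 of 8 tested were called higher at each of weeks 0 and 15, beside 10.3% and 13.4% of all genes. JAK2, a kinase of these receptors, rose by log2 1.63 ± 0.14 (edgeR adjusted p = 2.29e-08) and IL12RB1, a receptor chain of IL-12 and IL-23, by 1.08 ± 0.13 (2.08e-06) at week 15. The chains of the IL-27 receptor were not called at either week. IL27RA was at -0.43 ± 0.15 at week 0 and 0.32 ± 0.21 at week 15, and IL6ST, its shared chain, at 0.55 ± 0.11 and 0.29 ± 0.08, under 1.5-fold. IL12B was lower at week 15, by log2 -0.72 ± 0.17 (adjusted p = 0.00293).

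**Figure D5:**
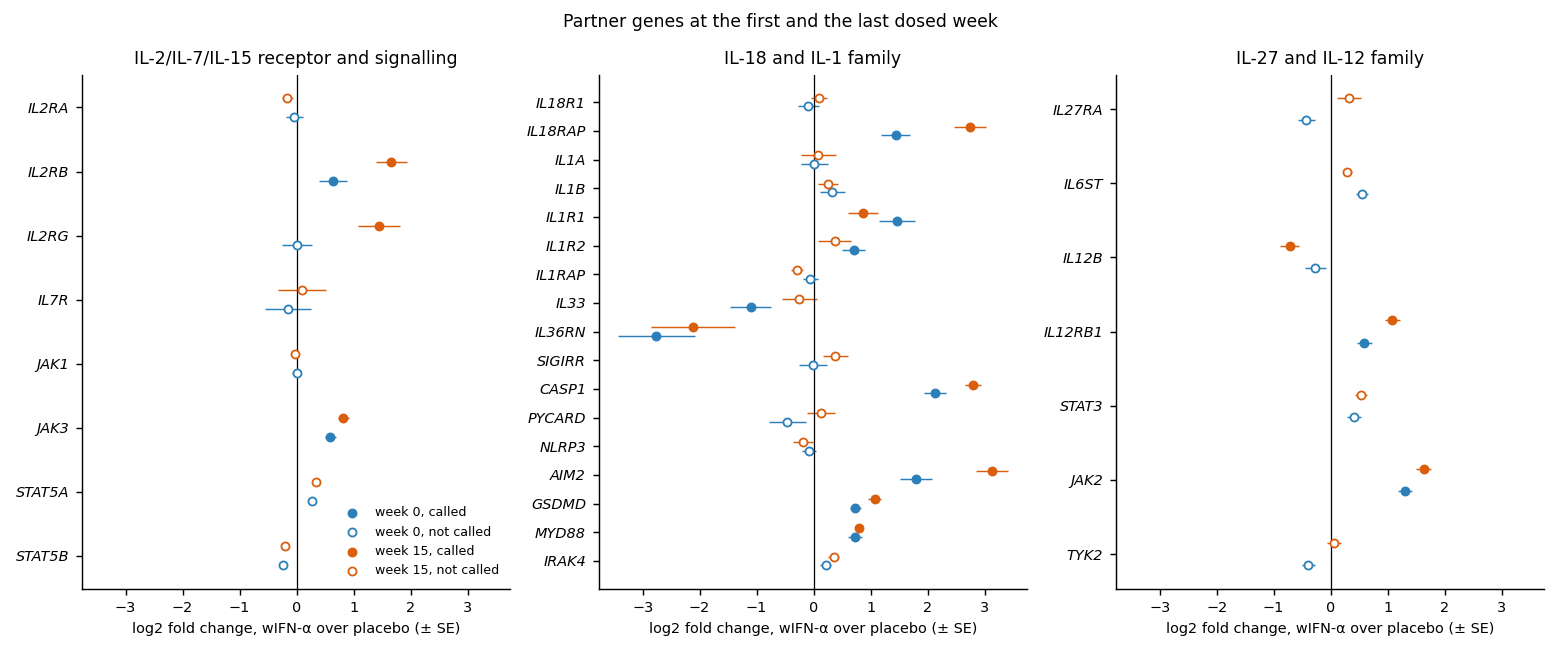
Log2 fold change of wIFN-α over placebo (± SE) for the genes of the 3 lists that were tested at week 0 (blue) and week 15 (orange), with filled points for calls. Among the genes plotted, which leave out 1 gene not reported here, AIM2, CASP1 and IL18RAP are above a log2 fold change of 2 at week 15, and IL36RN is below -2.

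Genes whose levels over all biopsies compared were most like those of a member are named as a description. Levels were taken as log2(CPM + 1) over 13915 genes whose mean reached 1 CPM, and EBI3 did not reach it and was left out. These r values include the difference between groups, and the biopsies share animals and lanes. IL18BP was most like TAP2, PSMB10 and SERPINB9 (r = 0.931, 0.931 and 0.93), genes of antigen processing and, for SERPINB9, of protection from granzyme B. IL15 was most like RABEPK, CXCL10 and PHF8 (0.904, 0.898 and 0.898), IL15RA most like C12orf49, PARP9 and ARF6 (0.838, 0.836 and 0.829), and IL27 most like ICAM1, HK3 and EVL (0.869, 0.861 and 0.859). IL7 was most like XDH, PBLD and MBL2 (0.784, 0.767 and 0.752), IL1RN most like TNFRSF1A, IL1R1 and DIO3 (0.712, 0.71 and 0.698), and IL18 most like C1orf183, SLC10A3 and SAMD1 (0.634, 0.613 and 0.608). Without F1016 and F1018 the values for IL7 fell to 0.708, 0.685 and 0.666, behind TMEM19 and KIAA0247 (0.73 and 0.728), FOSL2 came first for IL1RN (0.733), and CASP4 and CASP5 came first for IL15RA (0.863 and 0.854).

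With each value taken as its deviation from the mean of its group and week, which removes the difference between groups, the lists changed. IL18BP was then most like the proteasome genes PSMB9, PSME1 and PSME2 (r = 0.739, 0.726 and 0.711), and IL27 most like MYO1G, RUNX3 and APOBR (0.822, 0.8 and 0.792). IL7 was most like CD302, GRAMD1C and PGRMC1 (0.737, 0.733 and 0.732), and IL15 most like RABEPK, TRAFD1 and CXCL10 (0.624, 0.601 and 0.59). IL1RN was most like DIO3, FOSL2 and MIR1247 (0.622, 0.557 and 0.543), IL18 most like TTLL9, ITGA10 and CERCAM (0.535, 0.501 and 0.468), and IL15RA most like IL34, ZNF821 and PSMB10 (0.473, 0.462 and 0.458). Between members the r of these deviations was 0.491 for IL18BP with IL27, 0.363 for IL15 with IL27, 0.312 for IL15 with IL15RA and 0.006 for IL18 with IL18BP. Without F1016 and F1018 the same 3 genes led for IL18BP, IL27 and IL18, while the r of IL7 with CD302, GRAMD1C and PGRMC1 was 0.581, 0.572 and 0.581. For IL15RA all 3 names changed, to CXCL2, NFKBID and RBM17 (0.498, 0.497 and 0.495).

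Sequencing lanes were compared next. Of the 100 biopsies of weeks 0 to 15, 23 had runs in more than 1 lane, and the values within lanes are of the other 77. In each of the 7 lanes, with these weeks pooled, the mean log2(CPM + 1) was higher on wIFN-α for IL15 (by 0.61 to 1.16), IL15RA (0.81 to 1.52), IL18BP (0.88 to 1.75), IL27 (0.36 to 0.98) and IL7 (0.29 to 0.88), and lower for IL18 (-0.85 to -0.25). For IL1RN (-0.76 to 1.71) and EBI3 (-0.19 to 0.38) the sign differed between lanes. In the fit with lane as a covariate, a biopsy was given the lane of its deepest run.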

How the data were processed

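Libraries of poly(A) RNA from liver biopsies were read from both ends. The authors aligned the reads with Bowtie2 to a woodchuck transcriptome assembly annotated by homology to human, mouse and rat genes, and counted them with SAMtools. The deposited values per run are expected counts per gene without normalization (118 of 3368022 nonzero entries are fractions) and the authors' RPKM values, which gave the transcript lengths and a check of the order of levels. Genes share a symbol by homology, so reads of close paralogs may be split or merged. No coordinates are given.

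Runs (203 in all) were added up per biopsy (164) and rounded. Biopsies of M1004 (7) and of other weeks (8) were not compared, and the virus entry was left out. edgeR 4.0.16 in R 4.3.3 was used with TMM scaling, its filter on low counts and the quasi-likelihood test, with a fit per week and the groups of the labels. A call needed an adjusted p under 0.05 and, within a week, a fold above 1.5. Differences between weeks came from 1 fit of those weeks. The alternatives used DESeq2 1.42.0, limma 3.58.1, RLE scaling, no filter, single runs, M1004, sex, lane, all weeks in 1 fit, a fold above 2, single animals left out and the animal as a replicate block, with and without 2 muscle-rich biopsies. The animals pair the biopsies across weeks. Over 15652 genes, deviations of 1 animal at 2 weeks had a median r of 0.381 (55 pairs, 38 above 0.1), against -0.014 between animals (564 pairs). The fits were tested on simulated data. Tables used Python 3.11.15.

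The members and lists were chosen with earlier results of these data known. Named genes were the members, at most 10 listed genes with the largest change among those called at week 15 with a mean of at least 1 CPM, and the 3 genes most like each member in level and in deviation. Of the listed genes, 1 is counted but not reported by name here. IL7R, JAK3, IL18R1, PYCARD, NLRP3, IL1B, IL33, IL27RA, IL6ST and IL12B were named after their values were seen. No sequences were used.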

Additional observations from a re-analysis of the deposited data

Results flagged for a closer look

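Among 80 groups of 4 to 10 animals, 6 held 1 animal far from the others by Dixon's test at 95%, where chance gives about 1 in 20. In the wIFN-α group at week 3, F1013 was low for IL15 (1.34 CPM, next 3.48) and for IL18BP (2.17 CPM, next 7.88). In the same group M1012 was low for IL1RN at week 11 (3.14 CPM, next 12.2) and F1020 high at week 15 (240 CPM, next 31.3). In the placebo group M1005 was high for IL15RA at week 23 (13.9 CPM, next 4.61) and M1011 high for IL1RN at week 15 (41.9 CPM, next 14.9).

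M1004, which the comparisons left out, had 5 biopsies at treated weeks. Its level was above every placebo animal of the week in 5 of them for IL15, IL18BP and IL27, in 4 for IL15RA and in 2 for IL7. For how many of all genes this held was not counted.

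Another 5 wIFN-α biopsies were taken at death (M1007, F1020 and F1023) or at weeks outside the schedule. The latter were of M1006, labelled week 3, and of M1002, labelled week 26, after treatment. Of the 5, 4 were above every one of the 81 placebo biopsies for IL18BP (the highest placebo value was 7.88 CPM), 2 for IL1RN (66.9 CPM), and 1 each for IL15 (3.57 CPM), IL15RA (14.4 CPM) and EBI3 (2.68 CPM). M1002, at 2.94 CPM, was not above them for IL18BP. The share over all genes was not counted. By the paper, F1023 probably had severe pneumonia and M1006 was euthanized in failing health, and the part of illness in these values was not tested.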

How the results depend on the processing

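Over all alternatives, 4 to 7 members were called at week 0, 4 to 5 at week 7, 4 to 6 at week 11, 4 to 6 at week 15 and 0 at weeks -3, 19 and 23. At week 3 the 4 members called became 1 with a fold change above 2 and 2 with the animal as a replicate block. With single animals left out the count was 6 to 7 at week 0, 4 to 5 at week 3, 5 at week 7, 5 to 6 at weeks 11 and 15, and 0 at week 19. The members that differed between week 15 and weeks 0 and 3 went from 0 to 3 with the animal as a replicate block and were 0 otherwise. The difference between weeks 0 and 3, added after the data were seen, had 0 members under each alternative. With a fold change above 2 the partner genes called fell from 14 to 8 at week 0, from 10 to 5 at week 3 and from 16 to 9 at week 7, since fewer genes can pass. Over 1384 single values of members, 1351 kept their side of the threshold, 17 lost a call, 16 gained one, and 50 turned sign, none of them with a call on either side. The replicate block of the week fits, which subtracts the difference at week -3, changed the calls of IL15RA at weeks 0 and 3, IL18 at week 15 and IL27 at week 3, and no other member's call at a week. Without F1016 and F1018 at week -3, an alternative added after the data were seen, it also ended the call of IL15RA at week 11 and gave one for EBI3 at week 15, and IL27 kept its call at week 3. Deposited RPKM gave the same order of levels as CPM per kilobase in both groups. Because every member passed the filter, the comparison planned for low genes and its other pseudocount were not run. Depth limits IL27 and EBI3 the most, with as few as 4 reads in a biopsy.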

Other observations

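Among the biopsies outside the schedule, those taken at the death of 2 wIFN-α animals had the highest IL1RN of the series, 1758 CPM in F1023 and 439 CPM in F1020. F1023 also had 90.3 CPM of IL18BP and 7.47 CPM of EBI3, with 0.568 CPM of IL15 and 1.88 CPM of IL15RA. The biopsy taken at the death of M1007 had 21.8 CPM of IL1RN, 29.1 CPM of IL15RA and 11.9 CPM of IL18BP, and that of placebo animal F1024 had 19.1, 4.62 and 3.1 CPM of the same genes. The labels give no week for these biopsies, and no test was made with them. The paper links the death of F1023 to probable severe pneumonia and gives no known cause for F1020. For M1007 and F1024 it names hemorrhage from the biopsy as the likely cause. The values of F1023 are thus those of an animal that was probably severely ill. The part of illness or death in these values was not tested.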
